A study of Mus musculus with 2 samples.

Results

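Glutamate receptor genes and the genes of their partner proteins were compared between the brain of a mouse fed cuprizone and that of a control mouse. The set held 30 of the 30920 genes named on the array: 4 AMPA receptor subunits, 7 NMDA receptor subunits, 5 kainate receptor subunits, 1 delta receptor subunit, 7 metabotropic receptors and 6 genes for auxiliary subunits or scaffolds. Genes were taken by symbol from the deposited table. The set, the gene lists and the thresholds were chosen with earlier results of these data known. The cuprizone array came from a male C57BL/6 mouse given a diet with 0.2% cuprizone, which binds copper and leads to the death of oligodendrocytes and the loss of myelin, for 6 weeks, and the control array from a male C57BL/6 mouse with the treatment label Control. Both samples carry the sentence on the diet, and the group of each was taken from its treatment label. Each group had 1 array, so no difference has an error or a test, and the values describe this pair of arrays only.

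Glutamate is the main excitatory transmitter of the brain. AMPA receptors carry the fast synaptic current, NMDA receptors admit calcium when transmitter release meets a depolarised membrane, and kainate receptors modulate release and excitability. Delta receptors bind cerebellin proteins and organise synapses, while metabotropic receptors signal through G proteins. Oligodendrocytes, their precursors, astrocytes and microglia also carry some of these receptors, so a level measured in whole tissue sums over many cells, and fewer cells of a type cannot be told apart from less RNA per cell.

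The tissue label of both samples was cerebellum, and Gabra6 and Pcp2, a pair of its defining markers, were not above background. Background was set where the central 95% of 1459 genes for olfactory and vomeronasal receptors ended, a log2 level of 4.71 on the cuprizone array and 4.68 on the control array. Gabra6, a GABA receptor subunit of cerebellar granule cells, was at 1.97 on the cuprizone array and 1.84 on the control array, and Pcp2, a Purkinje cell gene, at 3.69 on the cuprizone array and 3.18 on the control array. Of 9 cerebellar neuron markers 3 were above background on both arrays, against 8 of 9 markers of excitatory forebrain neurons. Receptors of cerebellar cells are therefore described as measured on arrays labelled cerebellum.

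No member differed between the arrays by as much as 1.5-fold, and 1 of the 29 measured members passed a log2 difference of 0.32, the threshold used here. Measured genes were those with at least 1 value at or over 4.34, the median of the values of both arrays. The member past the threshold was Cnih3, higher on the cuprizone array, and 0 members were lower by that much. Past the same threshold, 7.83% of all 16559 measured genes lay on the higher side and 8.26% on the lower side, so the members' count was no larger than the background. For 1.5-fold these shares were 1.6% and 1.35%, and for 2-fold 0.223% and 0.127%.

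Differences of the measured members, cuprizone minus control on the log2 scale, ran from -0.21 to 0.33 with a median of 0.00. The median of all measured genes was -0.01. Of the members 15 were higher and 14 lower, where 45.3% of all measured genes were higher and 51.6% lower. One of the 15, Grin3b, lay within background and counted as measured only through its cuprizone value. Over the 28 members above background on both arrays, 14 were higher and 14 lower, with a median of -0.01. The median absolute difference was 0.13 for the members and 0.14 for all measured genes. Each member was also set among the 1000 measured genes nearest to it in mean level, since differences scatter more at low levels, and 0 of the 29 lay outside the central 95% of those neighbours. Across the 29 members the absolute difference fell with mean level (Spearman's rho -0.58, a description over genes that share both arrays).

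**Figure D1:**
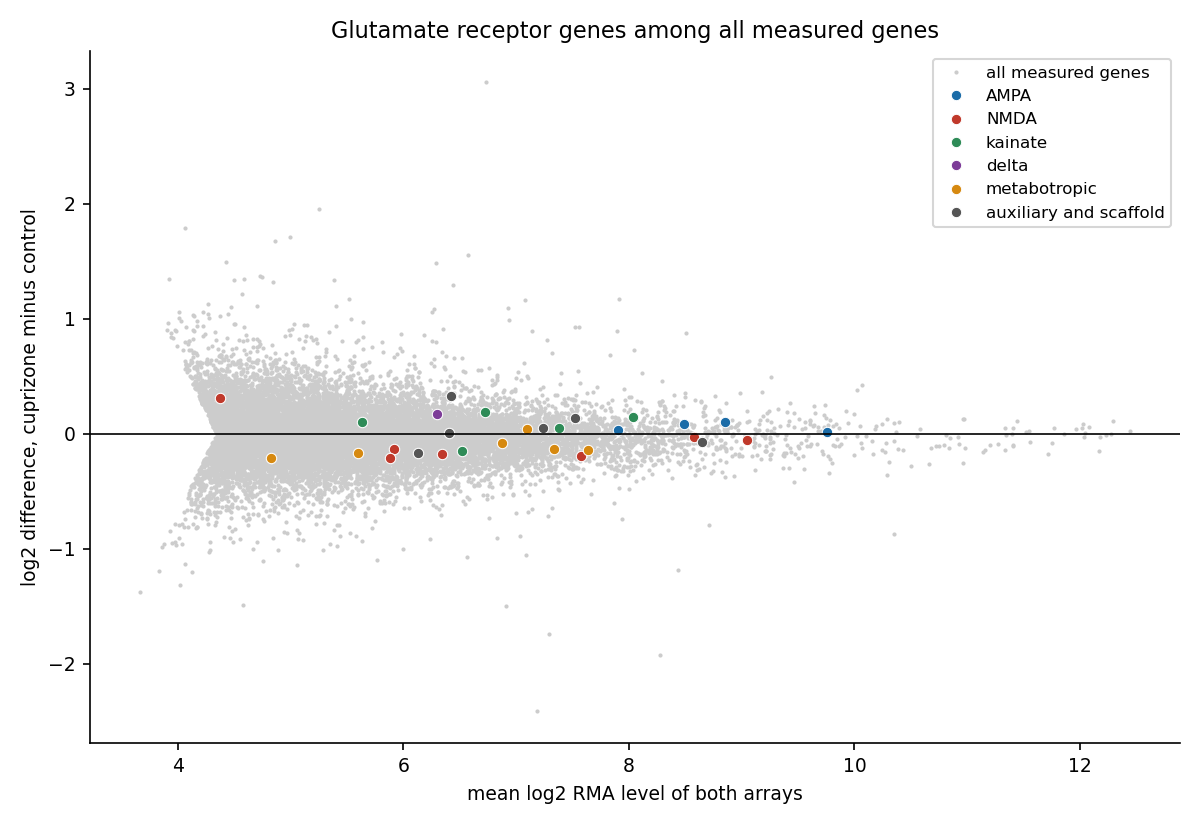
Log2 difference (cuprizone minus control) against the mean log2 RMA level of both arrays, with all 16559 measured genes in grey and the 29 measured members coloured by class. The members lie between -0.21 and 0.33, inside the cloud of genes of like level.

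All 30 members had a single probe set of 14 to 35 probes, and 0 of these probe sets were marked as cross-hybridising. Of the members 28 were above background on both arrays and 2, Grin3b and Grm6, on neither. A level is a probe set's own scale, so levels are compared between the arrays and not between genes.

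**Figure D2:**
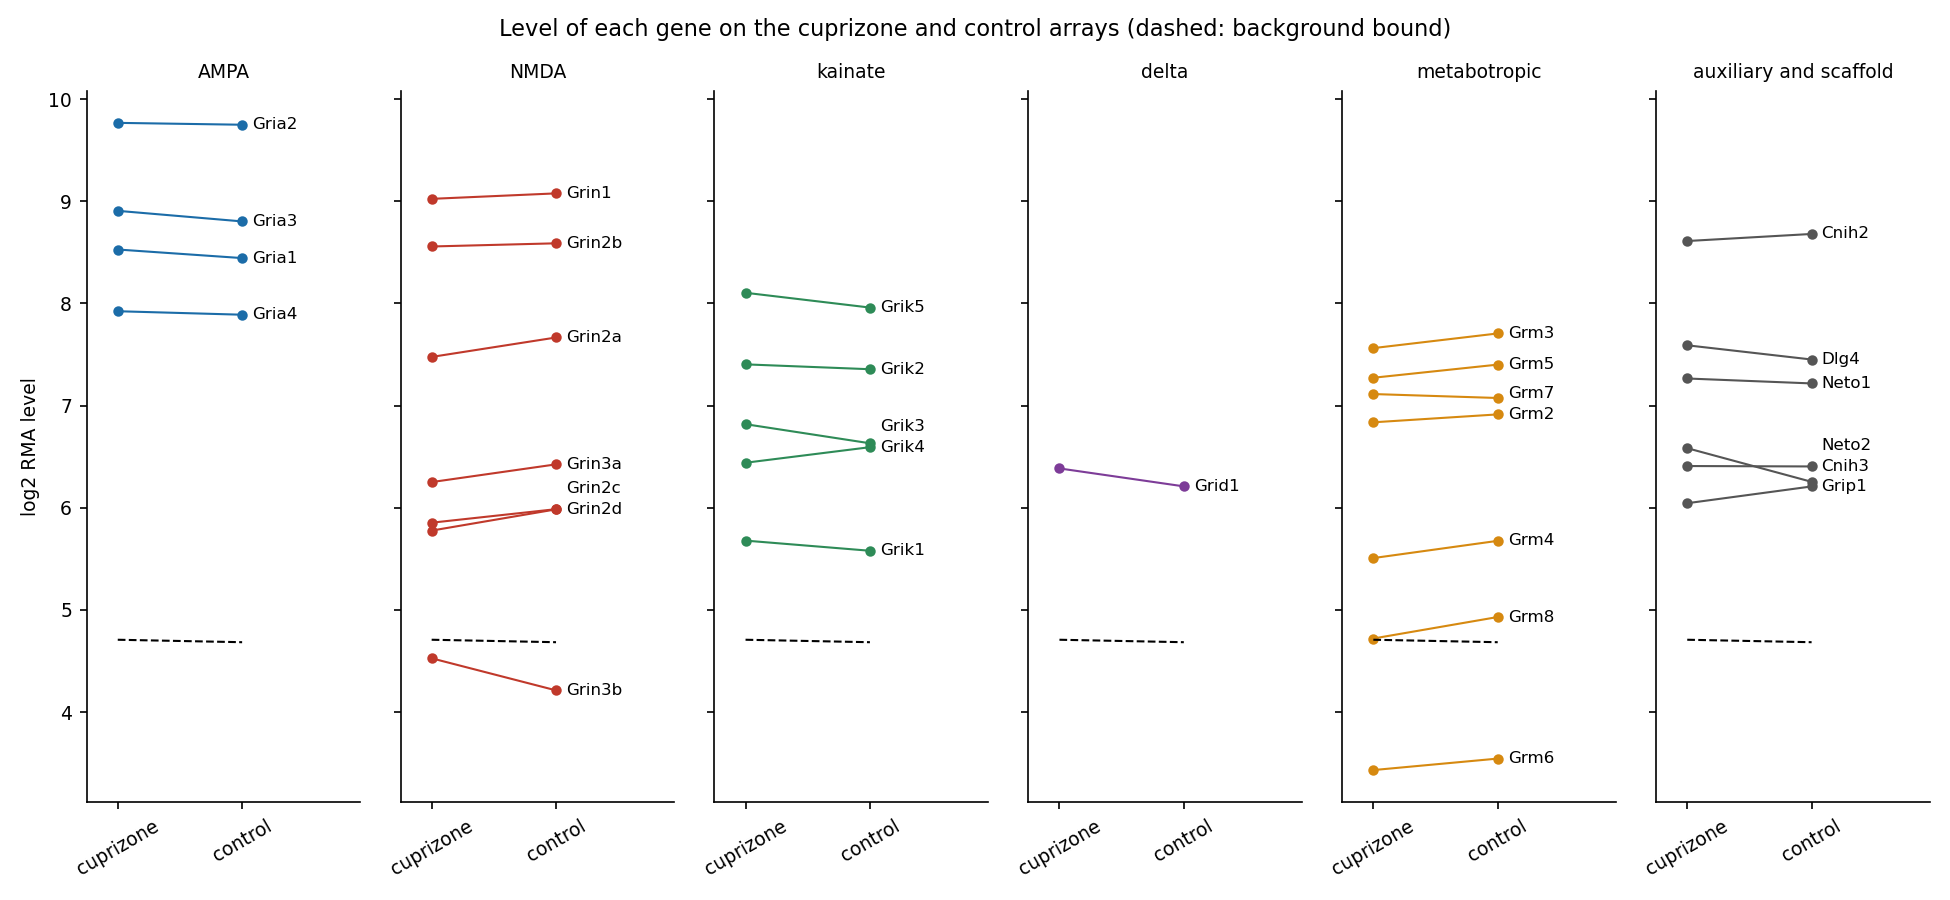
Log2 RMA level of each of the 30 genes on the cuprizone array (left point) and on the control array (right point), in 1 panel per class, with the background bound dashed. Lines are nearly flat, and only Grin3b and Grm6 lie below the bound on both arrays.

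The 4 AMPA receptor subunits were all slightly higher on the cuprizone array, where 45.3% of all measured genes were higher. Differences of the class ran from 0.02 to 0.10 on the log2 scale, with a median of 0.06. Gria2, the subunit whose edited form blocks calcium entry, was at 9.77 on the cuprizone array and 9.75 on the control array, a difference of 0.02. Gria1, which is abundant in hippocampal and cortical principal cells and is recruited in synaptic potentiation, was at 8.53 on the cuprizone array and 8.44 on the control array. Its difference of 0.08 stood at percentile 79.9 of the 1000 genes of like level. Gria3 was at 8.91 on the cuprizone array and 8.80 on the control array, the largest difference of the class at 0.10. Gria4, a subunit of fast-spiking interneurons, precursor glia and Bergmann glia, was at 7.92 on the cuprizone array and 7.89 on the control array. With both arrays centred on their medians Gria2 turned to -0.01, and with either spike-in scaling the class median was below 0, as was that of all genes. The array annotation places Gria1 on chromosome 11 from 57011387 to 57330244, Gria2 on chromosome 3 from 80684936 to 80802791, Gria3 on chromosome X from 41401128 to 41678601 and Gria4 on chromosome 9 from 4417818 to 4796234 (the build of these positions is not stated).

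Partners of the AMPA receptor showed the largest difference of the set, in Cnih3, beside a small one of opposite sign in its relative Cnih2. Cornichon proteins escort AMPA receptors out of the endoplasmic reticulum and slow their closing at the synapse. Cnih3 was at 6.58 on the cuprizone array and 6.25 on the control array, which is 1.26-fold higher. Its difference of 0.33 stood at percentile 96.6 of the genes of like level, whose central 95% reached from -0.42 to 0.37. Cnih2 was at 8.61 on the cuprizone array and 8.68 on the control array, a difference of -0.07. Grip1, a PDZ scaffold that binds the tails of AMPA receptor subunits, was at 6.04 on the cuprizone array and 6.21 on the control array, a difference of -0.16. Cnih3 was only just past the threshold, with 0.30 after median centring and 0.07 and -0.07 after scaling on hybridization and poly-A spike-ins. The next member below the threshold was Grin3b at 0.31, within background on both arrays.

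The start regions of the cornichon genes are shown because Cnih3 was the member past the threshold and Cnih2 its close relative. Each window of 300 bases spans an annotated transcript start near its 3′ end and is given 5′ to 3′ on the strand of the gene, from RefSeq for build GRCm38.p6. Capitals mark GC boxes, GGGCGG or its reverse complement CCGCCC.
Cnih3, chr1:181352378-181352677, plus strand: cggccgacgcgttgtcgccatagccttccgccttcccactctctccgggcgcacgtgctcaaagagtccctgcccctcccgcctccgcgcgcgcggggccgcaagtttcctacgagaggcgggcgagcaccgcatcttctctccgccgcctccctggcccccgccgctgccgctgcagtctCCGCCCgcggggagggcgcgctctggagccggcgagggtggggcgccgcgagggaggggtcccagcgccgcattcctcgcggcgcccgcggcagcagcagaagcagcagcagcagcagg
Cnih2, chr19:5098472-5098771, minus strand: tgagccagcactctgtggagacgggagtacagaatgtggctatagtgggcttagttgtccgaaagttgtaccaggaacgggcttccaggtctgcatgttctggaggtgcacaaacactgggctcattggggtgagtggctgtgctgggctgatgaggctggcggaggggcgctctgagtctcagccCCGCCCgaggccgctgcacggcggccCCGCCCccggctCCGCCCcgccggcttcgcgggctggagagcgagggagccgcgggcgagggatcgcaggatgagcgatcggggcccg
The Cnih3 window held 1 GC box and 75.3% G and C, and the Cnih2 window 3 GC boxes and 67.3%. The letters TATAAA were in neither window on either strand. Windows were at hand for 20 of the 30 members, 28 windows in all. A GC box was found in 15 of these 28 (53.6%), where 35.7% of all 32851 promoter windows of this length held one. TATAAA was found in 2 of the 28 (7.14%), against 13.6% of all windows. The median share of G and C was 64.2% in the 28 windows and 52.7% in all windows. Whether the motif shares differ beyond that base content was not tested. A gene can have several windows, so they are not independent. These letters describe the windows and were not related to the values.

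NMDA receptor subunits were lower on the cuprizone array in 6 of 7 cases, where 51.6% of all measured genes were lower. The median difference of the class was -0.13. The 6 that were lower were the 6 above background. Grin1, the obligatory subunit that binds glycine or D-serine, was at 9.02 on the cuprizone array and 9.08 on the control array, a difference of -0.05. The annotation places it on chromosome 2 from 25291177 to 25319187. Among the glutamate-binding subunits, Grin2b, which dominates in forebrain and early life, was at 8.56 on the cuprizone array and 8.59 on the control array. Its difference was -0.03, and it turned to 0.01 when the arrays were quantile normalized again. Grin2a, which joins and partly replaces it as synapses mature, was at 7.48 on the cuprizone array and 7.67 on the control array. That difference of -0.19, 1.14-fold lower, stood at percentile 13.5 of genes of like level, the lowest place in the set.

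Of the remaining NMDA subunits, 3 were lower by 0.13 to 0.21 on the log2 scale and Grin3b, within background, was the exception in sign. Grin2c, characteristic of cerebellar granule cells and also found in astrocytes, was at 5.85 on the cuprizone array and 5.99 on the control array, a difference of -0.13. Grin2d, found in interneurons, midbrain and brainstem, was at 5.78 on the cuprizone array and 5.98 on the control array. Its difference of -0.21, 1.16-fold lower, was the largest negative one of the class. Grin3a, which lowers the calcium permeability of the receptor and is also expressed by oligodendrocytes, was at 6.25 on the cuprizone array and 6.43 on the control array, a difference of -0.17. Grin3b, a subunit of motor neurons, was at 4.53 on the cuprizone array and 4.21 on the control array, so both values were within background and no fold is given. With background values raised to the bound its difference was 0.02, which is the gap between the bounds of both arrays and not a value of the gene. Dlg4, the scaffold PSD-95 that anchors NMDA receptors in the postsynaptic density, had the opposite sign to the subunits it binds: it was at 7.59 on the cuprizone array and 7.45 on the control array, a difference of 0.14 at percentile 88.3.

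Kainate receptor subunits were higher on the cuprizone array in 4 of 5 cases, where 45.3% of all measured genes were higher. The median difference of the class was 0.10. Grik3, a low-affinity subunit, was at 6.82 on the cuprizone array and 6.63 on the control array. Its difference of 0.19, or 1.14-fold, stood at percentile 91.1 of genes of like level. Grik5, a high-affinity subunit that needs a low-affinity partner to form a channel, was at 8.10 on the cuprizone array and 7.96 on the control array, a difference of 0.14. Grik2, a low-affinity subunit of hippocampal mossy fibre synapses and granule cells, was at 7.40 on the cuprizone array and 7.36 on the control array. Grik1, a low-affinity subunit prominent in interneurons, was at 5.68 on the cuprizone array and 5.58 on the control array. Grik4, the other high-affinity subunit, was the exception: it was at 6.44 on the cuprizone array and 6.59 on the control array, a difference of -0.15 at percentile 25.3. The high-affinity pair therefore had opposite signs. Neto1 and Neto2, transmembrane auxiliary subunits that slow kainate receptor gating, differed by 0.05 and 0.00. Neto1 was at 7.27 on the cuprizone array and 7.22 on the control array, and Neto2 at 6.41 on the cuprizone array and 6.40 on the control array; after median centring Neto2 turned to -0.02.

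Grid1, the delta receptor member, was higher on the cuprizone array. It was at 6.39 on the cuprizone array and 6.21 on the control array, a difference of 0.18, or 1.13-fold, at percentile 86.2. The annotation places it on chromosome 14 from 34819825 to 35583379. Of the cerebellins that bridge delta receptors to neurexins, Cbln1 was within background on both arrays, at 4.12 on the cuprizone array and 4.37 on the control array. Cbln3 and Cbln4 were also within background on both arrays. Cbln2 was above background on both, at 5.34 on the cuprizone array and 5.44 on the control array.

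Metabotropic receptors were lower on the cuprizone array in 5 of 6 measured cases, where 51.6% of all measured genes were lower. The median difference of the class was -0.14. Grm5, of group I, which couples to phospholipase C, was at 7.27 on the cuprizone array and 7.40 on the control array, a difference of -0.13. Group II receptors inhibit adenylyl cyclase. Grm2, a presynaptic autoreceptor, was at 6.84 on the cuprizone array and 6.91 on the control array. Grm3, which astrocytes express strongly, was at 7.56 on the cuprizone array and 7.71 on the control array. Its difference was -0.14, at percentile 22.9.

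Group III receptors sit mostly on presynaptic terminals and also inhibit adenylyl cyclase. Grm4, prominent in cerebellar granule cells and also expressed in forebrain, was at 5.51 on the cuprizone array and 5.68 on the control array, a difference of -0.17. Grm8 was at 4.72 on the cuprizone array and 4.93 on the control array, a difference of -0.21; its cuprizone value was above background by 0.012. Grm7 was the receptor of this family with a positive difference, at 7.11 on the cuprizone array and 7.07 on the control array, or 0.04. Grm6, the receptor of retinal bipolar cells, was at 3.43 on the cuprizone array and 3.55 on the control array, within background on both arrays, and was not counted as measured.

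**Figure D3:**
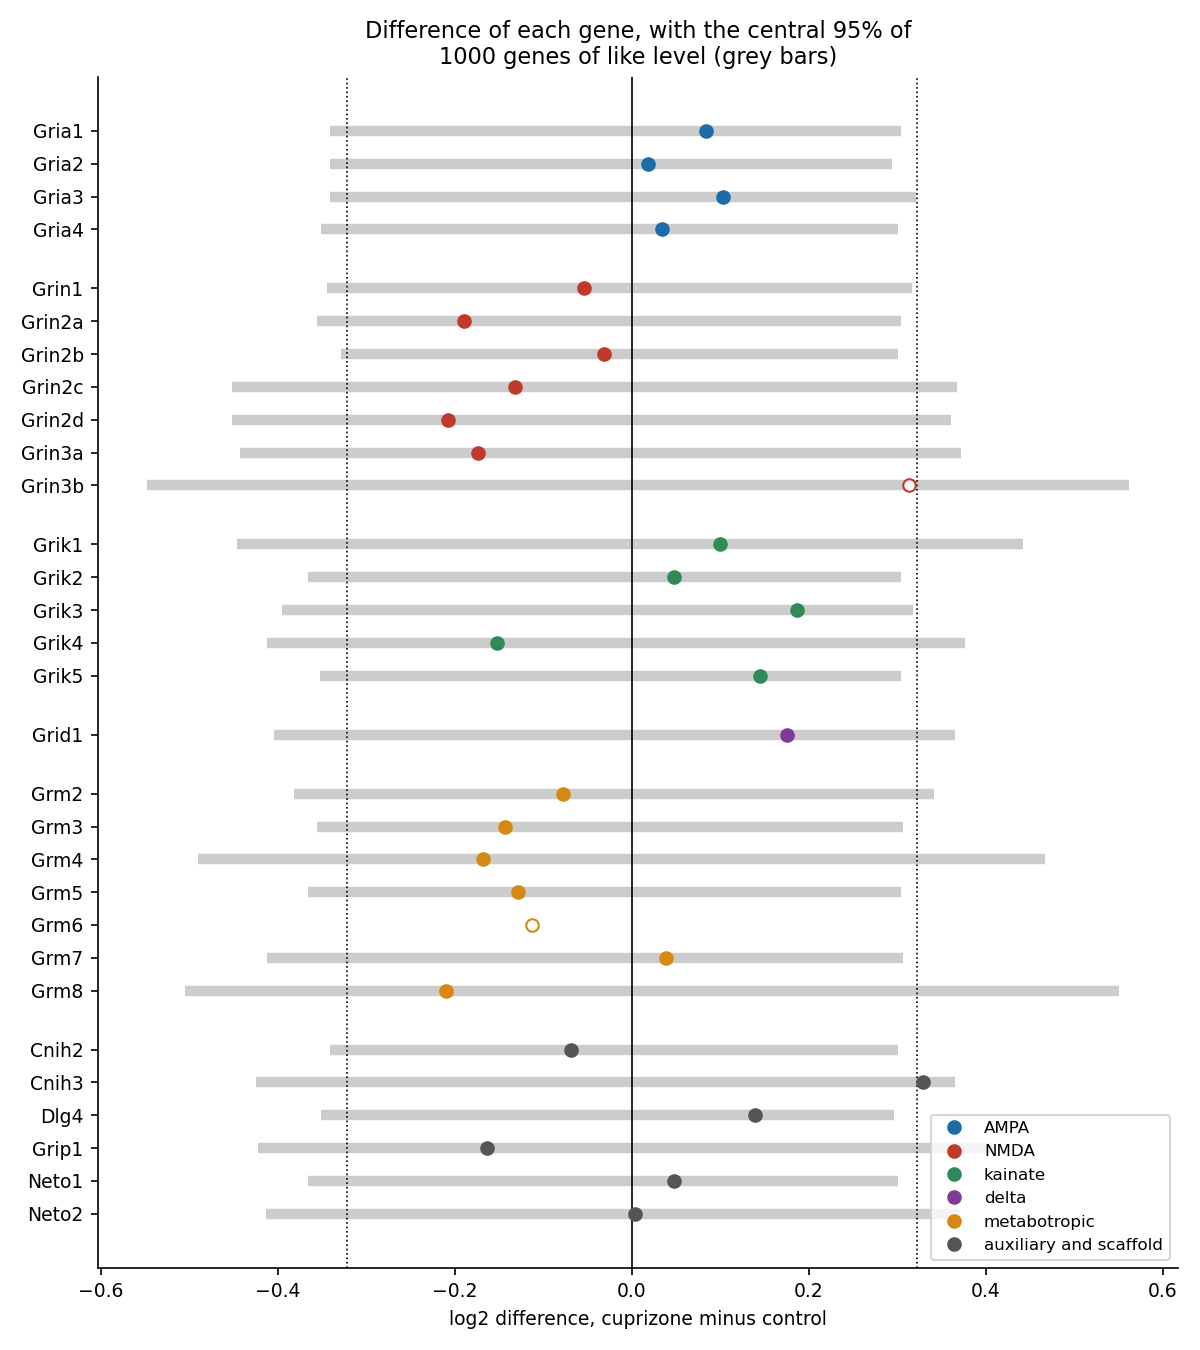
Log2 difference of each gene (points, cuprizone minus control; open where both values lie within background), with the central 95% of the 1000 measured genes nearest in mean level as grey bars (the bar is not drawn for Grm6, which was not measured) and the threshold of 0.32 in either direction as dotted lines. AMPA and kainate points lie mostly right of 0 and NMDA and metabotropic points mostly left of it, all inside the grey bars.

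Set side by side, the classes fell on either side of the median of all genes. AMPA and kainate subunits were higher in 8 of 9 cases with a median of 0.08, and NMDA and metabotropic receptors were lower in 11 of 13 measured cases with a median of -0.13, where 45.3% of all measured genes were higher and 51.6% lower. These classes were pooled by the sign they had shown, so the pooled counts describe that choice and support nothing further. The delta subunit stood at 0.18, and the 6 auxiliary and scaffold genes had a median of 0.03, with 4 higher and 2 lower. Restricted to genes above background on both arrays, the NMDA median was -0.15 over 6 subunits, all lower. With 1 array per group no test of a difference between classes was made. Scaling on hybridization spike-ins moved the median of all measured genes to -0.27, and scaling on poly-A spike-ins moved it to -0.42. Under these, every class median was below 0: kainate subunits were at -0.16 and -0.30 and AMPA subunits at -0.20 and -0.35, against -0.39 and -0.54 for NMDA subunits and -0.39 and -0.54 for metabotropic receptors. A common scaling factor leaves the distance between classes as it was, so their order under these scalings is no further evidence.

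**Figure D4:**
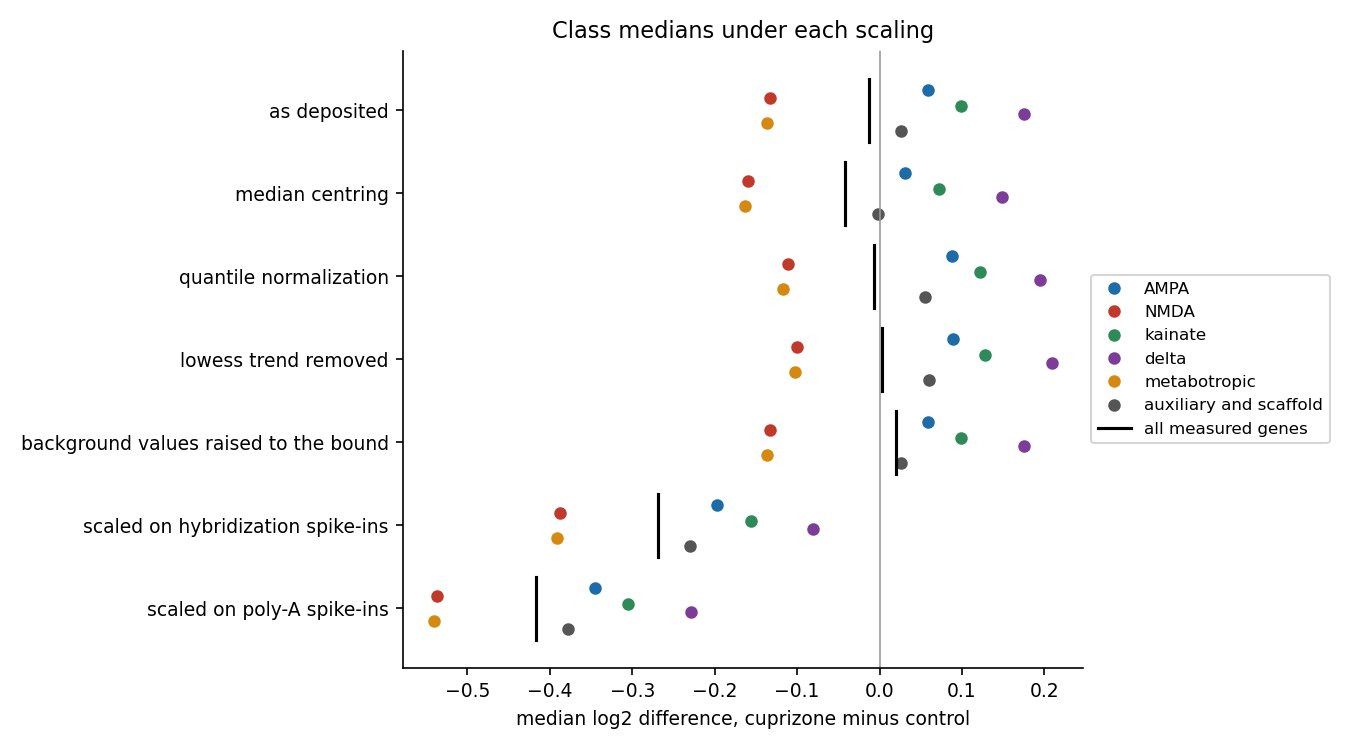
Median log2 difference (cuprizone minus control) of each class (points) and of all measured genes (black bars) as deposited and under 6 other scalings or floors. NMDA and metabotropic medians lie left of the bar for all genes and AMPA, kainate and delta values right of it in each; both spike-in scalings put every class below 0.

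Genes around the receptors were given by lists chosen by function, with earlier results of these data known. Of all measured genes 45.3% were higher and 51.6% lower. Of 20 measured AMPA receptor auxiliary and secreted partners, 6 were higher and 14 lower, 0 past the threshold, with a median of -0.03. The largest differences were those of Cacng5, a transmembrane AMPA receptor regulator (-0.30), Lrrtm1, a postsynaptic adhesion protein (-0.28), and Gsg1l, an auxiliary subunit that speeds AMPA receptor desensitisation (-0.19). Of 20 postsynaptic scaffolds and kinases, 9 were higher and 11 lower, with a median of -0.02. Homer2, an adaptor that ties group I metabotropic receptors to calcium stores, was at 5.58 on the cuprizone array and 6.12 on the control array, or 1.45-fold lower, the largest difference of these lists. Baiap2, a regulator of actin in spines, differed by -0.30 and Camk2g, a calcium-dependent kinase, by -0.27.

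Genes for AMPA receptor trafficking and for metabotropic signalling were mostly lower on the cuprizone array, where 51.6% of all measured genes were lower. Of 14 trafficking genes 12 were lower, 1 higher and 1, Grip2, identical on both arrays, with a median of -0.19. Gripap1, which binds Grip1 and recycling endosomes, was at 6.22 on the cuprizone array and 6.67 on the control array and was the gene of that list past the threshold. Grasp, a scaffold of metabotropic receptors, differed by -0.30 and Arc, which drives AMPA receptor endocytosis, by -0.28. Of 17 metabotropic signalling genes 14 were lower and 3 higher, with a median of -0.15. Rgs4, which shortens G protein signals, was at 6.53 on the cuprizone array and 6.99 on the control array, or 1.37-fold lower, and Pde1b, a calcium-stimulated phosphodiesterase, differed by -0.23. Itpr1, a calcium release channel of internal stores, differed by -0.19. The delta receptor list had a median of -0.10 over 7 measured genes, of which 1 was higher and 6 lower. Among the 6 were Cbln1 and Cbln3, a further cerebellin at 4.21 on the cuprizone array and 4.35 on the control array. Both lay within background and counted as measured only through their control values. With background values raised to the bound, the list held 4 lower and 3 higher genes with a median of -0.02. Such raising sets a gene within background on both arrays to the gap between the bounds, 0.02, whatever its deposited sign. Cbln1 and Cbln3 counted as higher only through that gap. Nrxn2, a presynaptic partner of cerebellins, differed by -0.13. Under hybridization and poly-A spike-in scaling all measured genes of these 5 lists were lower on the cuprizone array. List medians lay between -0.28 and -0.59. Each scaling shifts every gene by a common amount, and the medians of all measured genes were -0.27 and -0.42, in that order.

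As deposited, markers of mature oligodendrocytes were lower on the cuprizone array, most microglial markers were higher, and the astrocyte marker Gfap was higher. Medians of the neuronal marker lists lay between -0.13 and 0.07, against -0.01 for all measured genes. Of 14 general neuronal markers 6 were higher and 8 lower, with a median of -0.05. Above background on both arrays were 13, while 1 of the 6 higher ones was above it on neither. The summed linear level of the 14 was 4355 on the cuprizone array and 4354 on the control array. Such sums are set mostly by the brightest probe sets of a list, so higher and lower genes can cancel. In that list Rbfox3, a splicing factor of mature neurons, differed by 0.39 and Nefm, a neurofilament, by -0.25, with Snap25, a synaptic vesicle fusion protein, at -0.10. Medians were 0.07 over 9 excitatory forebrain markers, -0.10 over 5 inhibitory markers and -0.13 over 4 cerebellar markers. Of the 4 cerebellar markers, Cbln3 lay within background and counted as measured only through its control value. With background values raised to the bound, 3 of the 4 were lower and 1 higher, with a median of -0.10. The higher one was Cbln3, which the raising set to the gap between the bounds of both arrays, 0.02. Among inhibitory markers Gad1, the enzyme of GABA synthesis, was at -0.30 and Vip, an interneuron peptide, at 0.17. Among forebrain markers Emx1, a cortical transcription factor above background on 1 array, was at 0.27 and Nrgn, a calmodulin-binding protein, at -0.19, and among cerebellar markers Zic1, a transcription factor, was at -0.19. All 12 mature oligodendrocyte markers were past the threshold on the lower side, with a median of -0.98. Of all measured genes 8.26% were past it on that side and 7.83% on the higher side. In the list 11 markers were above background on both arrays, and summed linear levels were 1729 on the cuprizone array and 3591 on the control array. The myelin protein genes Mobp and Mal differed most, by -1.93 and -1.50, and Mbp, a major myelin protein gene, differed by -1.05. Of 12 microglial markers 8 were past the threshold on the higher side, and in all 11 were higher and 1 lower. The median of that list was 0.59, with sums of 1432 on the cuprizone array and 901 on the control array. Cd68, a lysosomal protein of phagocytes, differed by 1.55, and C1qc, a complement subunit, was at 6.03 on the cuprizone array and 5.03 on the control array. Gfap, the intermediate filament of reactive astrocytes, was at 8.50 on the cuprizone array and 7.33 on the control array, or 2.25-fold higher, and was the 1 astrocyte marker of 9 past the threshold. The median of that list was 0.06, with S100b, a calcium-binding protein, at -0.31. The median was 0.02 over 8 oligodendrocyte precursor markers, with Lhfpl3 at 0.18 and Sox10, a transcription factor of the lineage, at -0.11.

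The marker values depended on the scaling as those of the receptors did. Under hybridization and poly-A spike-in scaling, named in that order, the general neuronal median was -0.31 and -0.46, with 13 and 14 of 14 lower. The median of all measured genes was -0.27 and -0.42, since each scaling shifts every gene by a common amount. The microglial median was 0.34 and 0.19, with 4 of 12 lower under each. The astrocyte median was -0.19 and -0.34, the excitatory forebrain median -0.18 and -0.33, and the mature oligodendrocyte median -1.24 and -1.39. Whether a change in the mix of cells had a part in the receptor values was not tested.

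**Figure D5:**
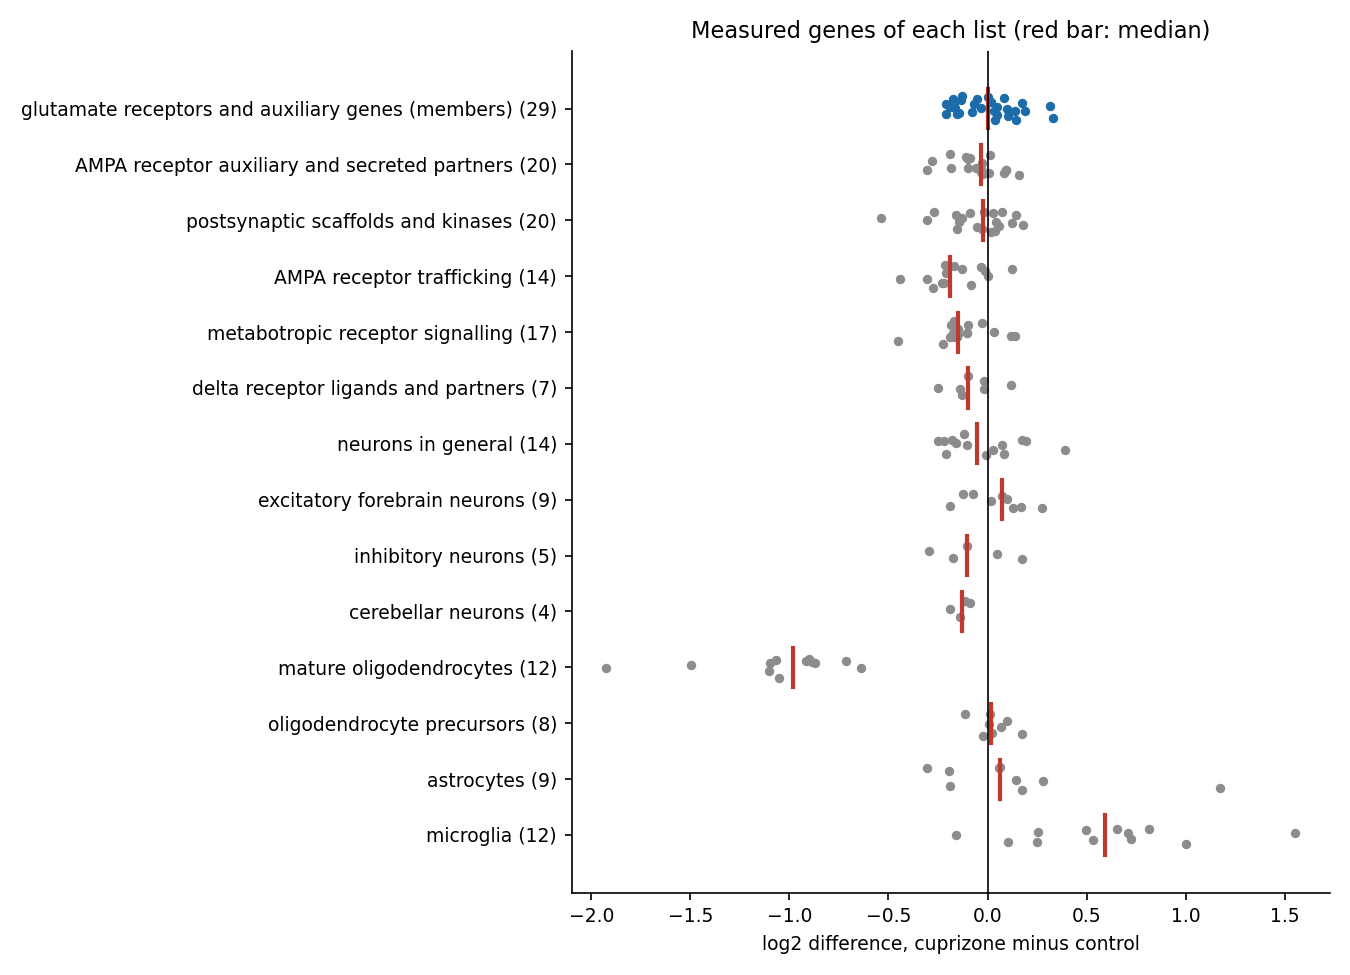
Log2 difference (cuprizone minus control) of each measured gene (points) in the receptor set (blue, top row), in 5 lists of related genes and in 8 lists of cell type markers (grey), with list medians as red bars and the number of genes in brackets. Receptor genes stay between -0.21 and 0.33, whereas all mature oligodendrocyte markers lie between -1.93 and -0.64.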

How the data were processed

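RNA of 2 mouse brain samples, 1 fed cuprizone and 1 control, was hybridised to a whole-transcript Mouse Gene 2.0 ST array, per the labels. The authors deposited log2 expression values for 41345 probe sets, and the submitters' processing notes name RMA and Affymetrix Power Tools, without versions. RMA equalises the signal distributions of the arrays, so a shift of total RNA would be removed. A second deposited table differed by at most 5e-05. The sources used here do not give the build of the annotation's positions.

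Gene symbols came from the deposited table, and for genes with several probe sets the brightest was used. Each difference is the cuprizone log2 value minus the control one. The members, gene lists and thresholds were chosen with earlier results of these data known. All 30 members are named whatever their values, with the 3 largest differences among measured genes of each pathway list. From each marker list the 2 largest among measured genes are named, with Gabra6, Pcp2, Mbp and Snap25 as checks. Cbln2, Cbln4, Grip2 and Grin1os are named outside these rules. Of the symbols in the lists, those found on the array were used, and some are not reported here. Spike-in scaling subtracted the median difference of 13 hybridization or 22 poly-A spike-in probe sets above background. With 1 array per group the number of arrays limits the precision, and no test or SD was computed. Python 3.11.15, pandas 2.3.3 and statsmodels 0.14.6 were used. The counting code was tested on simulated data.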

Additional observations from a re-analysis of the deposited data

How the results depend on the processing

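No paired analysis was possible because each group had 1 array. As deposited, 1 member was higher by a log2 difference of at least 0.32 and 0 were lower by as much. The higher count was 0 after median centring, with either spike-in scaling, and with the threshold at 1.5-fold or 2-fold. Members lower by at least 0.32 numbered 12 with hybridization and 20 with poly-A spike-in scaling, under which 40.4% and 67.9% of all measured genes were that much lower. Under these scalings, named in that order, the median was -0.25 and -0.40 over all members, -0.20 and -0.35 for AMPA, -0.39 and -0.54 for NMDA, -0.16 and -0.30 for kainate, -0.080 and -0.23 for delta, -0.39 and -0.54 for metabotropic, and -0.23 and -0.38 for auxiliary and scaffold genes. Cnih3 turned to -0.075 with poly-A scaling. Class medians moved by at most 0.1 under the other deposited table, median centring, quantile normalization, lowess, the mean of probe sets, omission of cross-hybridising probe sets, both level filters, the background floor and the use of means; the auxiliary and scaffold median changed sign with median centring (-0.0014). Every member had 1 uniquely mapping probe set, so the probe set choices could not move a member. The values of Grin3b and Grm6, within background, are the least certain.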

Other observations

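Grin1os, an antisense transcript that the annotation places within the span of Grin1 on the opposite strand (chromosome 2 from 25291220 to 25298928), was at 5.79 on the cuprizone array and 6.04 on the control array. Its difference of -0.25 was larger than that of Grin1 (-0.05); it was looked up after the values had been seen.

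Of the 41345 probe sets, 2066 (5%) had exactly the same value on both arrays, while 622 (1.5%) differed by less than 0.01 without being identical. Identical values were found in 8.84% of gene probe sets with an odd number of probes and in 2.48% of those with an even number. None of the 29 measured members was among them, whereas Grip2 and Cbln4 of the related lists were, both noticed after the values had been seen. The differences of such probe sets are given as 0.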
